A study of Homo sapiens with 12 samples.

Results

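Gene expression before any drug was compared between the lung cancer lines H1650 and PC9. The comparison rests on the libraries labelled DMSO at 0 h (T0), which are 2 of H1650 and 2 of PC9 out of 12 in the series. The other 8 libraries come from the same lines after 36 h under inhibitors of the epidermal growth factor receptor (EGFR), erlotinib at 10 μM and osimertinib at 0.1 μM. They entered the expression filter and the estimate of spread behind every test, and their levels are given only where named. PC9 and H1650 are established lines of human non-small cell lung cancer. Per the study's text both carry the same in-frame deletion in the kinase domain of EGFR, while the genotype label of each reads wild-type. The study's RNA-seq methods name no engineered change in either line. Both were grown in RPMI with fetal bovine serum, seeded in 6-well plates, left overnight and collected at the time of drugging in the presence of 0.1% DMSO. Each line stands for a single tumour, so what differs between these lines cannot be assigned to a tumour class.

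Lung adenocarcinoma cells are epithelial cells that can keep, lose or change the identity of the airway or alveolar cell they came from. Mutant EGFR signals to RAS and ERK, to PI3K and AKT and to the STAT factors, and ERK output is held in check by phosphatases and Sprouty proteins that ERK itself induces. Lines of the same tumour type and driver also differ in which genes are silent, in the loss of tumour suppressors, and in the activity of interferon and oxidative stress programmes.

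The 4 libraries held between 20922022 and 26346187 reads on genes, and 3 reads, the limit that a count of 0 allows, were worth between 0.116 and 0.151 normalized CPM (CPM, counts scaled to library size by the TMM method of edgeR). This limit covers counting error only. The labels do not say that replicates came from separate cultures. The p-values therefore measure the spread between libraries of a group, estimated over all 12 libraries, and this spread may be technical. Adjusted p-values come from the quasi-likelihood test of edgeR, adjusted over all tested genes by the Benjamini-Hochberg method. Log2 fold changes are H1650 minus PC9, followed by their standard error after ±. The adjusted p is given for the first gene of a paragraph and for genes nearer to the threshold of 0.05, and the other genes given with a log2 fold change passed it.

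Of 19108 tested genes, 6849 (35.8%) were higher in H1650 and 6456 (33.8%) were higher in PC9, which together make 69.6% of tested genes, and 5803 were not called. The number called with more than a 2-fold difference was 7184 (37.6%), of which 3884 (20.3%) were higher in H1650 and 3300 (17.3%) in PC9, and 3980 genes differed by more than 4-fold. The median log2 fold change of all tested genes was 0.04, with the middle of the distribution between -0.73 and 0.87. With so many genes called, a share of called members in any gene group has to be read against these percentages. Of the 7184 genes, 5692 (79.2%) were also called in the same direction between the lines under erlotinib and 5635 (78.4%) under osimertinib, with fold changes from other libraries but a filter and spread estimated on all 12, where 72.1% and 71.6% of all tested genes were called in either direction. The opposite direction was called for 361 and 364 of them.

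**Figure D1:**
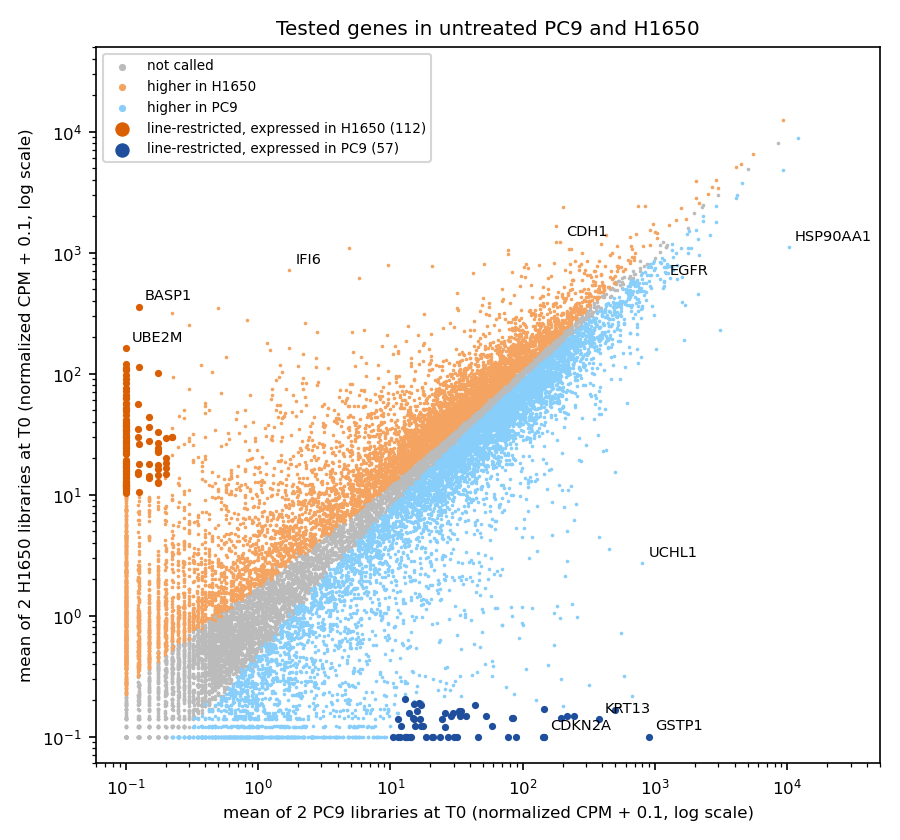
Each point is a tested gene, with the mean of 2 PC9 libraries on the x axis and of 2 H1650 libraries on the y axis, both in normalized CPM plus 0.1 on log scales, coloured by the call at an adjusted p under 0.05. Line-restricted genes (112 expressed in H1650, 57 in PC9) lie along the axes, with GSTP1 as the highest on the PC9 side and BASP1 on the H1650 side.

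The labelled tissue was checked against its markers. The epithelial keratins were high in both lines: KRT8 had 4124 and 4086 normalized CPM in the PC9 libraries and 2929 and 2756 in the H1650 libraries. KRT18 had 1854 and 1882 in PC9 and 1093 and 1081 in H1650. KRT7 had 2392 and 2196 in PC9 and 2081 and 1934 in H1650 and was called higher in PC9 (log2 fold change -0.19 ± 0.07, adjusted p = 0.0217), a call that was lost without PC9 replicate 1 (adjusted p = 0.217) or H1650 replicate 2 (adjusted p = 0.179). The defining markers of the alveolar and adenocarcinoma lineage were at or near 0 in both lines. NKX2-1, the master factor of lung epithelium, had 0 reads in both PC9 libraries and 2 and 0 reads in the H1650 libraries. SFTPB, a surfactant protein gene, had 0.101 and 0 in PC9 and 0.0466 and 0.154 in H1650. NAPSA, the aspartic protease used to diagnose lung adenocarcinoma, had 0.353 and 0.592 in PC9 and 0.560 and 0.463 in H1650 (log2 fold change 0.10 ± 0.57, adjusted p = 0.885). The keratins were thus abundant, and none of these 3 lung markers reached 1 CPM in any library.

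Of 31 markers of other cell types (immune, endothelial, fibroblast, blood, muscle and liver genes), 22 were below the expression filter and 11 had 0 reads in all 4 libraries. Their summed level was 29 and 30.4 CPM in PC9 and 16.8 and 16.1 CPM in H1650, most of it from COL1A1, a collagen chain, with 21.1 and 18.3 in PC9 and 11.9 and 12.1 in H1650. PTPRC, the pan-leukocyte marker, had 0.151 and 0.0987 CPM in PC9 and 0 and 0.193 CPM in H1650.

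Some genes were expressed in only 1 line. A gene was called line-restricted when each T0 library of a line had at most 3 reads and each T0 library of the other had at least 10 normalized CPM. The rule uses the T0 levels, so these genes are described without a test at T0. It found 112 genes expressed in H1650 and silent in PC9, 104 of them protein coding, and 57 genes expressed in PC9 and silent in H1650, 45 of them protein coding. In the silent line, 78 of the 112 and 22 of the 57 had 0 reads in both libraries. The values just inside and outside the limit of 3 reads by the highest count in the silent line were those of HUNK (3 reads) and IFI27 (4 reads) for H1650, and of CYP4F11 (3 reads) and NLRP2 (4 reads) for PC9. At the limit of 10 CPM, TENM3 (10.1) was inside and DPYSL5 (9.95) outside for H1650, and SLC44A4 (10.1) was inside and ANKRD65 (9.97) outside for PC9.

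The drug-treated libraries, which the rule does not use, show how stable the silence was. In all 4 treated PC9 libraries 87 of the 112 genes (77.7%) stayed at 3 reads or fewer, and in all 4 treated H1650 libraries 37 of the 57 genes (64.9%) did. The highest mean reached in the silent line under a drug was 5.85 CPM in PC9 and 0.674 CPM in H1650. In the expressing line, 96 of the 112 and 41 of the 57 genes kept at least 10 CPM in the libraries of both drugs.

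The most abundant restricted gene of PC9 was GSTP1, the glutathione S-transferase that conjugates electrophiles, with 906 and 881 normalized CPM in the PC9 libraries and 0 and 0 in the H1650 libraries. Against a floor of 3 reads per library it was at least 6989-fold higher in PC9. ALDH3A1, an aldehyde dehydrogenase, had 512 and 479.8 in PC9 and 0.0933 and 0.0386 in H1650. KRT13, a keratin of non-cornified squamous epithelium, had 380.5 and 367 in PC9 and 0 and 0.0772 in H1650. These genes were high in PC9 and at the counting floor in H1650. HMGA2, a fetal chromatin protein, had 238 and 250.4 in PC9 and 0.0933 and 0 in H1650. SPP1, the secreted phosphoprotein osteopontin, had 209 and 219 in PC9 and 0.0933 and 0 in H1650. MAGEA3, a cancer-testis antigen, had 195 and 192 in PC9 and 0.0466 and 0.0386 in H1650, with the reservation that MAGEA3 and MAGEA6 are near-identical and can exchange reads. AL365181.3, a non-coding gene with 138 and 146 in PC9 and 0 and 0 in H1650, CDKN2A and CYP4F11 were also among the 10 most abundant of this set.

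On the H1650 side the most abundant was BASP1, a membrane-bound signalling protein, with 0.0504 and 0 normalized CPM in the PC9 libraries and 365 and 349 in the H1650 libraries. UBE2M, the enzyme that conjugates NEDD8 to cullins, had 0 and 0 in PC9 and 176 and 148 in H1650 (at least 1082-fold). SDC2, a heparan sulphate proteoglycan of the cell surface, had 0 and 0 in PC9 and 125 and 116 in H1650. UBE2M and SDC2 had no read in PC9. DSG3, the desmosomal cadherin of squamous epithelium, had 0 and 0 in PC9 and 107 and 109.6 in H1650 (at least 725-fold). SPINK6, an inhibitor of skin proteases, had 0.0504 and 0 in PC9 and 112 and 115 in H1650. PRAME, a cancer-testis antigen, had 0 and 0 in PC9 and 102 and 110.4 in H1650. PLXDC2 had 0 and 0 in PC9 and 111 and 111 in H1650. SEMA5A, a semaphorin guidance protein, had 0.0504 and 0.0987 in PC9 and 101 and 101 in H1650. OLFM1 had 0 and 0 in PC9 and 98.3 and 96.1 in H1650. BARX1, a homeobox gene, had 0 and 0 in PC9 and 99.2 and 79.9 in H1650. None of these 10 genes had more than 2 reads in a PC9 library.

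**Figure D2:**
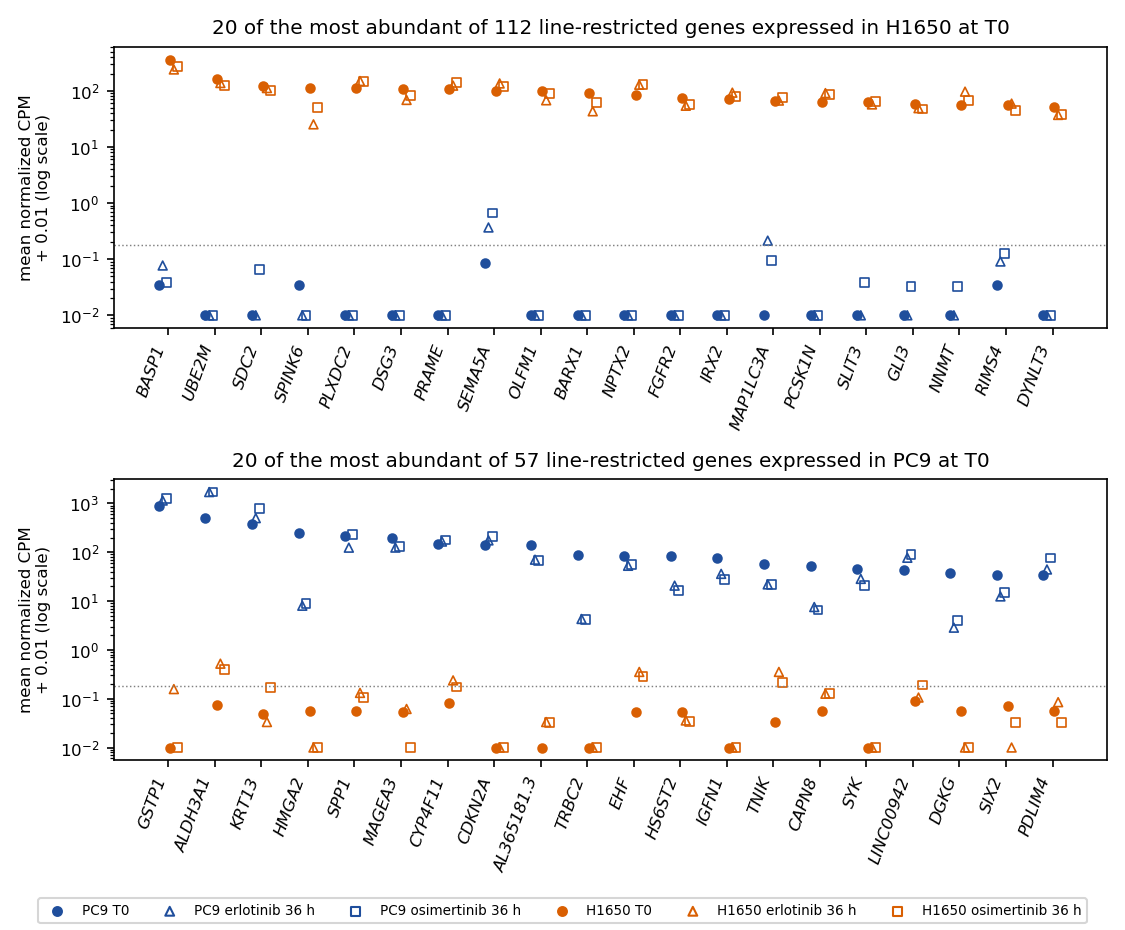
For each line, 20 of its most abundant line-restricted genes, with the mean of 2 libraries per group in normalized CPM plus 0.01 on a log scale for PC9 and H1650 at T0 and under each drug. The dotted line marks the highest level that 3 reads had in a library, 0.168 CPM in PC9 under osimertinib, replicate 2. UBE2M, DSG3 and PRAME stayed at 0 reads in PC9 under both drugs. GSTP1 stayed below the dotted line in H1650, with at most 3 reads per library.

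The start regions of 4 of these genes are shown as a CpG-rich and a CpG-poor example from the 10 most abundant of each line, CpG being the dinucleotide at which promoters are methylated. They were picked for that contrast, so they say nothing of the lines. They are the RefSeq windows of GRCh38.p14 from 250 bases before to 50 bases after the annotated start, written on the strand of the gene, with each CpG in capitals. GSTP1 lies at chr11:67583562-67583861, plus strand, UBE2M at chr19:58558562-58558861, minus strand, DSG3 at chr18:31447491-31447790, plus strand and SPP1 at chr4:87975464-87975763, plus strand.
GSTP1: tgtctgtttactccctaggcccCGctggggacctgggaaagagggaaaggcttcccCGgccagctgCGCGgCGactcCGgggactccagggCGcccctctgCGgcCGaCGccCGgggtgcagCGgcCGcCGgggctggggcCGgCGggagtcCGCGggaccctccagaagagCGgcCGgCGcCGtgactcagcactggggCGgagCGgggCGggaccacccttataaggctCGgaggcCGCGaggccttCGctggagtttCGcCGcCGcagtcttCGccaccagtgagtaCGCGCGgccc
UBE2M: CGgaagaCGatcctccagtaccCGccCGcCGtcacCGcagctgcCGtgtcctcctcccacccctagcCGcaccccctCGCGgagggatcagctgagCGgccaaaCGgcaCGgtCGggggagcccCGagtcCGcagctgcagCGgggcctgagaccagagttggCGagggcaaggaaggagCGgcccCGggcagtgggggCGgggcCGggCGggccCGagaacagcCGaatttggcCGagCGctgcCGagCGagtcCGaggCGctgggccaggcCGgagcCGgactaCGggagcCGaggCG
DSG3: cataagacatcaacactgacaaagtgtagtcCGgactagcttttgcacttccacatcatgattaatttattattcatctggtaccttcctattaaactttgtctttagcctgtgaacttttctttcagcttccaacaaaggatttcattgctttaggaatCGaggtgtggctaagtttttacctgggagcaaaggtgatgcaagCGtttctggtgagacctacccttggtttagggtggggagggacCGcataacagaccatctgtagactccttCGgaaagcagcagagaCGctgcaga
SPP1: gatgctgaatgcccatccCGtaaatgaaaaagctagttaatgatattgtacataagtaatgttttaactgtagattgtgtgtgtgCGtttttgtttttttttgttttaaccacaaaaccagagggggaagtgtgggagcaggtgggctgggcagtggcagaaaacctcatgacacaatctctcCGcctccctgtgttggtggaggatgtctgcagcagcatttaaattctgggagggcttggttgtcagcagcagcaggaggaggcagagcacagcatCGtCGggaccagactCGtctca
The windows of GSTP1 and UBE2M each held 36 CpG and those of DSG3 and SPP1 each held 6. Among the 12590 tested genes with a window the median was 25 CpG, with quartiles of 16 and 34. A comparison of the restricted sets with all genes was void, because only 65.9% of tested genes and under 76% of the coding restricted genes had a window. Methylation was not measured in these data.

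Of 168 restricted genes with a position, 29 stood in 13 runs of neighbours, where neighbours are consecutive among genes expressed in either line. The clearest was at the end of the long arm of chromosome 19. UBE2M (chr19:58555712-58558960, minus strand) had 0 and 0 reads in PC9 and 3770 and 3834 in H1650. MZF1, a zinc finger factor next to it, had 0 and 0 against 977 and 1363 reads, and the transcribed pseudogene CENPBD1P1 had 0 and 0 against 548 and 656 reads. Over all 6 PC9 libraries UBE2M and MZF1 had no read and CENPBD1P1 had at most 1. The antisense gene MZF1-AS1 overlaps MZF1, and without stranded counting their reads cannot be told apart. CHMP2A, whose annotated end lies less than 1 kb from UBE2M, had 1853 and 1891 reads in PC9 and 1384 and 1752 in H1650, and TRIM28, the next gene inward, had 13324 and 12705 against 19341 and 20530. The absence of reads in PC9 therefore began between CHMP2A and UBE2M and ran to CENPBD1P1.

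The mirror case was the short arm of chromosome 9 at 9p21. CDKN2A, which encodes the cell cycle inhibitor p16 and the protein ARF (chr9:21967753-21995301, minus strand), had 2962 and 2794 reads in PC9 and 0 and 0 in H1650, as it had in all 6 H1650 libraries. CDKN2B, the p15 gene, had 173 and 180 reads in PC9 and none in H1650, and the antisense gene CDKN2B-AS1, which overlaps it, had 60 and 76 against none. MTAP, the methylthioadenosine phosphorylase next to them, had 1174 and 1219 reads in PC9 and 8 and 5 in H1650 (log2 fold change -7.73 ± 0.20, adjusted p = 1.1e-22). On either side the genes were expressed in H1650: KLHL9 had 1174 and 1355 reads there and 486 and 506 in PC9, MIR31HG had 307 and 358 against 337 and 394, and DMRTA1 had 141 and 147 against 10 and 14. From MTAP to CDKN2B no H1650 library thus had more than 8 reads on a gene, while the genes on either side had reads in each.

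**Figure D3:**
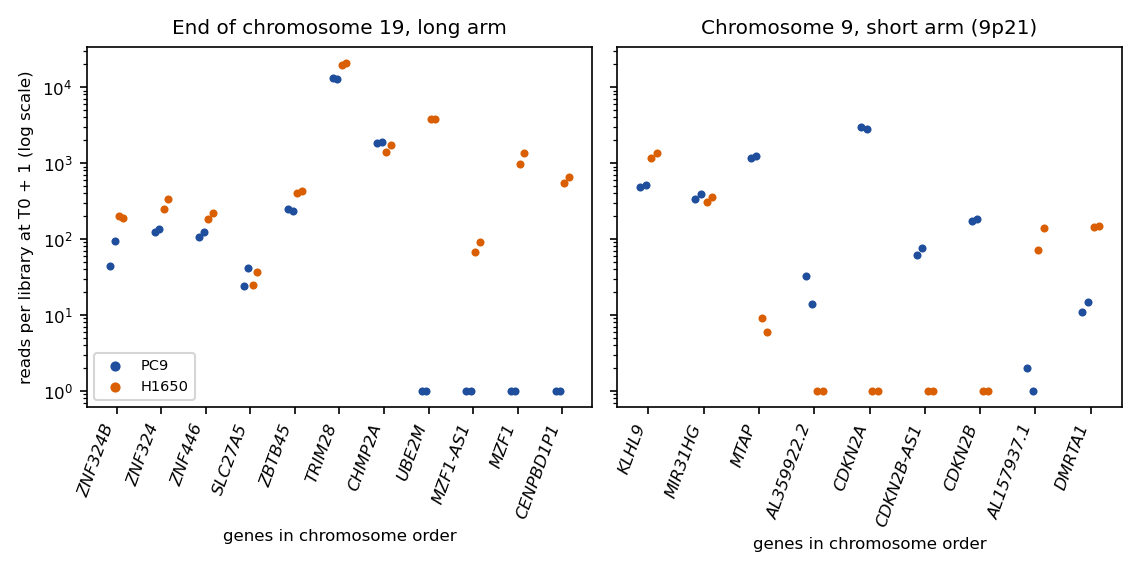
Reads per T0 library plus 1 on a log scale for genes in chromosome order at the end of chromosome 19 (left) and at 9p21 (right), 1 point per library. UBE2M to CENPBD1P1 had no reads in PC9, and CDKN2A to CDKN2B had none in H1650, beside expressed neighbours such as CHMP2A and KLHL9.

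Apart from the run at the end of chromosome 19, the runs were groups of 2 or 3 genes. The homeobox factor IRX2 on chromosome 5 had 0 and 0 CPM in PC9 and 77.7 and 66.1 CPM in H1650. Its divergent neighbour C5orf38 had 0 and 0 in PC9 and 47.3 and 35.6 in H1650. Also on chromosome 5, 3 protocadherin genes of the beta cluster (PCDHB5, PCDHB13 and PCDHB14) and 3 of the gamma cluster (PCDHGA7, PCDHGB4 and PCDHGB5) were expressed in H1650. The gamma genes share their last exons, so the split of reads among them is uncertain. ZNF667 and its antisense partner ZNF667-AS1 on chromosome 19, BICC1 and PHYHIPL on chromosome 10, CCN5 and RIMS4 on chromosome 20, and SDC2 and CPQ on chromosome 8 were the other pairs of H1650. The pairs of PC9 were MUC20 and MUC4 on chromosome 3, UGT1A6 and UGT1A1 on chromosome 2, which share exons, AC005336.1 and CYP4F11 on chromosome 19, GABRA3 and MAGEA3 on chromosome X, and the non-coding AL365181.3 and AL590666.2 on chromosome 1.

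Medians also differed between chromosomes. On chromosome 13 the median log2 fold change of 304 tested genes was -0.92, with 64.5% higher in PC9 and 13.5% higher in H1650. On chromosome X it was -0.41 (551 genes). Chromosomes 21 (0.57, 197 genes), 20 (0.48, 512 genes) and 19 (0.37, 1366 genes) lay on the H1650 side of the median of 0.04 over all genes. Genes of a chromosome are not independent of each other, and these medians are given without a test.

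Lineage factors split between the lines. Of 34 lung lineage factors 21 were tested, 10 were higher in H1650 and 7 in PC9, with a median log2 fold change of 0.07. FOXQ1, a forkhead factor, had 198 and 187 normalized CPM in the PC9 libraries and 0.933 and 0.772 in the H1650 libraries (log2 fold change -7.82 ± 0.17, adjusted p = 1.1e-24). FOXA1, a pioneer factor of endoderm, had 43.3 and 40.9 in PC9 and 2.80 and 2.47 in H1650 (log2 -4.00 ± 0.13). ETV5, an ETS factor of distal lung and a target of ERK, had 62.1 and 63.5 in PC9 and 5.22 and 6.56 in H1650 (log2 -3.40 ± 0.14). These 3 factors were higher in PC9. In H1650 the higher factors were IRX2, described above, its neighbour in family IRX5 with 0.353 and 0.0494 in PC9 and 87.5 and 61.5 in H1650 (log2 8.50 ± 0.28), and CEBPD, an acute phase factor, with 11.1 and 7.95 in PC9 and 67.9 and 54.8 in H1650 (log2 2.68 ± 0.16). FOXA2, a related forkhead factor, was below the filter at 0.0504 and 0 CPM in PC9 and 0.466 and 0.309 CPM in H1650.

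Alveolar genes gave no clear side. Of 24 listed, 15 were tested, with 6 higher in H1650 and 4 in PC9 (median 0.36). CAV1, the caveolin abundant in type 1 cells, had 1317 and 1353 CPM in PC9 and 767 and 745 CPM in H1650 (log2 fold change -0.82 ± 0.07, adjusted p = 1.9e-11). RTKN2, another type 1 marker, had 43.9 and 46.6 in PC9 and 13.3 and 13.7 in H1650 (log2 -1.74 ± 0.11). LAMP3, a protein of lamellar bodies, had 5.14 and 6.27 in PC9 and 12.9 and 11 in H1650 (log2 1.06 ± 0.16). CTSH, a protease that processes surfactant, had 36.4 and 33.5 in PC9 and 83 and 81.1 in H1650 (log2 1.23 ± 0.08). EMP2, also a type 1 marker, had 77.6 and 81.8 in PC9 and 119 and 123 in H1650 (log2 0.60 ± 0.08). CAV1 and RTKN2 were thus higher in PC9, and EMP2, LAMP3 and CTSH were higher in H1650.

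Of 32 airway secretory and mucous genes 14 were tested, of which 9 were higher in PC9 (64.3%) and 3 in H1650 (21.4%), with a median of -3.28. Their summed level went the other way, at 355 and 341 CPM in PC9 and 476 and 500.05 in H1650, where SLPI made up most of it. MUC4, a membrane mucin, had 34.9 and 30.6 CPM in PC9 and 0.0466 and 0.0772 CPM in H1650, which is at most 2 reads per H1650 library. WFDC2, the secreted protein HE4, had 41.6 and 39.6 in PC9 and 1.07 and 0.579 in H1650 (log2 fold change -5.65 ± 0.19, adjusted p = 2.0e-20). On the other side MUC1, another membrane mucin, had 8.47 and 7.404 in PC9 and 119.5 and 118 in H1650 (log2 3.90 ± 0.10). SLPI, the secretory leukocyte protease inhibitor, had 29.2 and 33.9 in PC9 and 331 and 362 in H1650 (log2 3.45 ± 0.09). The lines therefore differed in which mucins they expressed. MUC5AC and SCGB3A2 were at or near 0 in both.

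Basal and squamous genes were divided into different sets. Of 38 listed, 31 were tested, with 14 higher in H1650 and 13 in PC9. Their median of -0.15 changed sign under 4 of the alternatives, so it shows no side. The keratins KRT13, KRT5 and KRT6A were higher in PC9. KRT5, the basal cell keratin, had 107 and 97.8 CPM in PC9 and 4.43 and 5.94 CPM in H1650 (log2 fold change -4.29 ± 0.13, adjusted p = 1.6e-21). KRT6A had 399 and 403 in PC9 and 22.3 and 23 in H1650 (log2 -4.14 ± 0.10), where KRT6A reads can be shared with KRT6B and KRT6C. The desmosomal DSG3 and DSC3 and the cornified envelope gene IVL were higher in H1650. DSC3, the desmocollin partner of DSG3, had 0 and 0 in PC9 and 25.7 and 22.2 in H1650, at least 160.1-fold. IVL, the envelope protein involucrin, had 1.41 and 1.23 in PC9 and 44.7 and 43.3 in H1650 (log2 5.05 ± 0.17). TP63, the basal master factor, was low, with 4.23 and 3.75 in PC9 and 0.606 and 0.386 in H1650 (log2 -3.02 ± 0.42).

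Adhesion genes of epithelia had a median of 0.04, with 20 higher in H1650 and 16 in PC9 among 42 tested of 47. The cadherins CDH1 and CDH3 were higher in H1650. CDH1, the epithelial cadherin, had 185 and 194 normalized CPM in the PC9 libraries and 1209.6 and 1214 in the H1650 libraries (log2 fold change 2.68 ± 0.08, adjusted p = 8.6e-22). CDH3, the placental cadherin, had 77.2 and 76.6 in PC9 and 983 and 977 in H1650 (log2 3.67 ± 0.08). CEACAM6, a surface adhesion protein, was near 0 in H1650, with 326 and 312 in PC9 and 0.140 and 0.193 in H1650 (log2 -10.83 ± 0.20). EPCAM, the pan-epithelial adhesion molecule, had 537 and 541 in PC9 and 199 and 214 in H1650 (log2 -1.38 ± 0.07). CRB3, a polarity protein, had 17.5 and 15.6 in PC9 and 2.57 and 2.70 in H1650 (log2 -2.65 ± 0.19). Those 3 genes were higher in PC9.

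Mesenchymal and matrix genes were higher in H1650 for 31 of 53 tested (58.5%) and in PC9 for 18 (34.0%), out of 58 listed, with a median of 0.92. Over the 28 genes that reached 10 counts in each of the libraries the median was 0.45. Their summed level was 5391 and 5530 CPM in PC9 and 9885 and 9507 in H1650. COL4A2, a basement membrane collagen, had 0.252 and 0.543 CPM in PC9 and 365 and 335 CPM in H1650 (log2 fold change 9.76 ± 0.17, adjusted p = 1.2e-26). MMP2, the gelatinase, had 1.26 and 0.888 in PC9 and 183 and 178 in H1650 (log2 7.39 ± 0.14). COL3A1 had 0 and 0 in PC9 and 13 and 12 in H1650, at least 83.5-fold. VIM, the intermediate filament of mesenchyme, had 17.4 and 20.6 in PC9 and 45.7 and 44.9 in H1650 (log2 1.25 ± 0.12). Genes on the other strand, such as VIM-AS1, overlap 24.4% of its exon length, so its reads are uncertain. TGFBI, a matrix protein induced by TGF-beta, had 847 and 834 in PC9 and 2436 and 2428 in H1650 (log2 1.53 ± 0.07). PLAT and INHBA were higher in PC9. PLAT, the tissue plasminogen activator, had 28.1 and 29.2 in PC9 and 0.0933 and 0 in H1650. INHBA, the activin A subunit, had 71.8 and 66.2 in PC9 and 2.47 and 2.20 in H1650 (log2 -4.89 ± 0.12). ZEB1, a repressor of epithelial genes, was low in both at 1.36 and 1.23 in PC9 and 0.0933 and 0.309 in H1650 (log2 fold change -2.60 ± 0.65, adjusted p = 0.00082). The list thus held sets that were higher in each line, with CDH1 and VIM both higher in H1650.

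Neuroendocrine genes were higher in H1650 for 10 of 15 tested (66.7%) and in PC9 for 3, with 17 of 32 below the filter. The median fell from 3.002 to 1.55 when genes at the counting floor were set at their bound. Their summed level went the other way, at 849 and 867 CPM in PC9 and 89.8 and 88.3 in H1650, most of it in PC9 from UCHL1. SYT1, a synaptic vesicle protein, had 1.41 and 1.53 CPM in PC9 and 44.3 and 44.9 CPM in H1650 (log2 fold change 4.92 ± 0.14, adjusted p = 1.2e-21). UCHL1, the ubiquitin hydrolase PGP9.5, had 790.1 and 811 in PC9 and 2.66 and 2.59 in H1650 (log2 -8.25 ± 0.12). ENO2, the neuronal enolase, had 49 and 47 in PC9 and 11.8 and 10.3 in H1650 (log2 -2.12 ± 0.12). PC9 was the higher line for both. CHGA, chromogranin A, had 0.101 and 0.197 in PC9 and 1.26 and 1.54 in H1650.

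HOX genes, which record position along the body axis, were higher in H1650 for 19 of 31 tested (61.3%) and in PC9 for 6 (19.4%), out of 39 listed. The median of 1.84 rested on low counts, since it was 1.32 with floor genes at their bound and -0.55 over the 12 genes that reached 10 counts in each of the libraries. HOXB5, HOXB6, HOXB7 and HOXA3 were higher in PC9, HOXB7 with 29.5 and 29 CPM in PC9 and 6.95 and 5.90 CPM in H1650 (log2 fold change -2.19 ± 0.14, adjusted p = 9.0e-14) and HOXA3 with 42 and 35.1 in PC9 and 9.47 and 7.37 in H1650 (log2 -2.20 ± 0.14). HOXC13, HOXC10 and HOXB2 were higher in H1650, HOXC13 with 1.16 and 1.04 in PC9 and 40.7 and 34.6 in H1650 (log2 5.09 ± 0.21), HOXC10 with 0.504 and 0.197 in PC9 and 14.6 and 16 in H1650 (log2 5.43 ± 0.27) and HOXB2 with 0 and 0 in PC9 and 14.7 and 10.6 in H1650. Antisense genes overlap several HOX genes, which leaves their split uncertain.

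**Figure D4:**
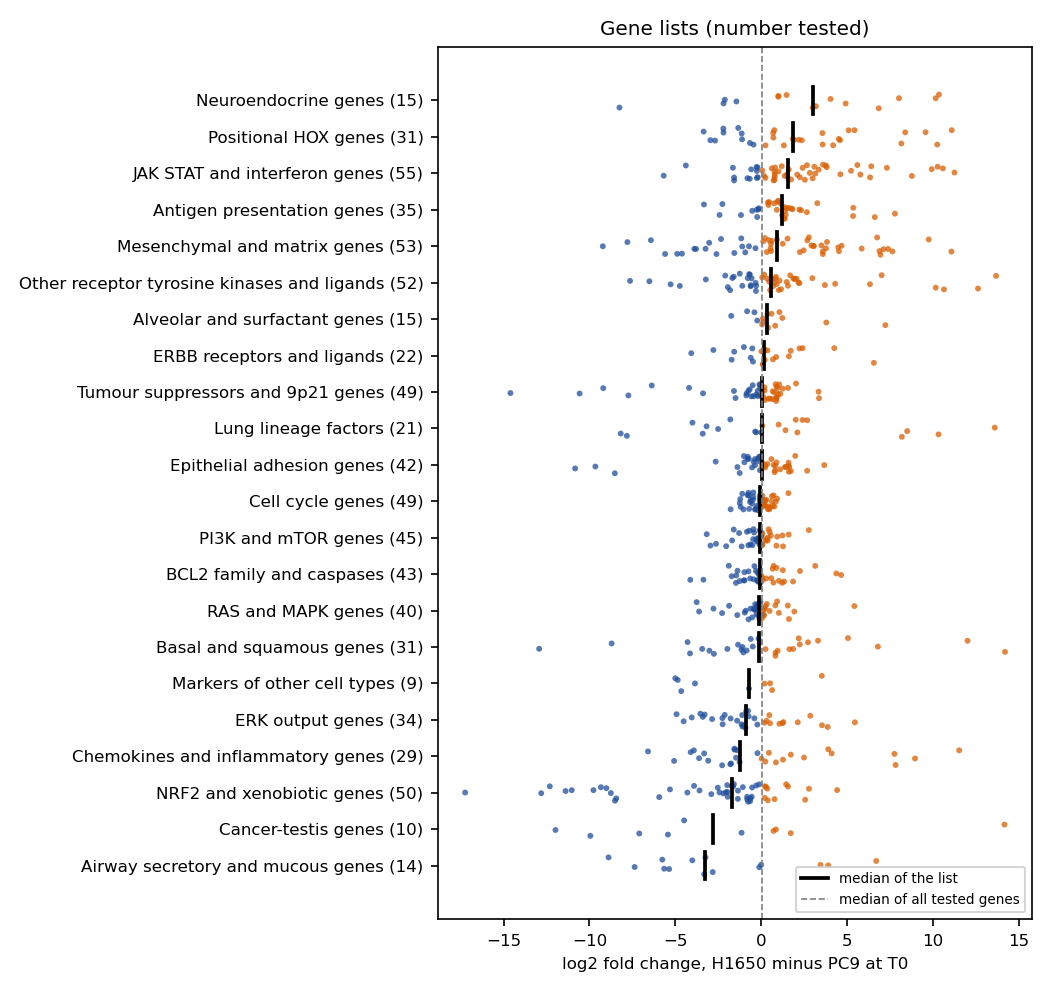
Log2 fold change, H1650 minus PC9 at T0, of the tested genes of each of 22 lists (1 point per gene, number tested in brackets), with a black bar at the list's median and a dashed line at the median of all tested genes. The fitted value of a gene with no reads in a line depends on the prior count and is not a bound. Interferon and antigen presentation genes lie mostly to the right, at medians of 1.54 and 1.22, and NRF2 and xenobiotic genes to the left, at -1.68.

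EGFR, the driver of both lines, had 1104 and 1225 normalized CPM in the PC9 libraries and 580.3 and 578 in the H1650 libraries (log2 fold change -1.01 ± 0.08, adjusted p = 2.0e-12), so its level was 2.01-fold higher in PC9. The other ERBB receptors split. ERBB2, the partner without a ligand, had 87.1 and 86.5 in PC9 and 298 and 274 in H1650 (log2 1.72 ± 0.07). ERBB3, the partner that recruits PI3K, had 84.3 and 89.5 in PC9 and 27.4 and 30.9 in H1650 (log2 -1.57 ± 0.08). EGFR and ERBB3 were thus higher in PC9 and ERBB2 in H1650. Of the ligands, epigen (EPGN) had 7.11 and 5.68 in PC9 and 119 and 125 in H1650 (log2 4.25 ± 0.12) and neuregulin 1 (NRG1), which binds ERBB3 and ERBB4, had 5.55 and 5.78 in PC9 and 30.3 and 30.02 in H1650 (log2 2.41 ± 0.14). Each was higher in H1650. Heparin-binding EGF (HBEGF) had 28.9 and 30.4 in PC9 and 22.6 and 19 in H1650 (log2 fold change -0.52 ± 0.13, adjusted p = 0.00087). In all, 10 of 22 tested genes of this list were higher in H1650 and 7 in PC9, with a median of 0.16.

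Other receptor tyrosine kinases and their ligands were higher in H1650 for 27 of 52 tested genes (51.9%) and in PC9 for 21 (40.4%), with a median of 0.58. MET, AXL and IGF1R, receptors known for bypassing EGFR, were higher in PC9. MET, the hepatocyte growth factor receptor, had 619 and 649.9 CPM in PC9 and 369 and 368 CPM in H1650 (log2 fold change -0.78 ± 0.07, adjusted p = 1.7e-10). AXL, the GAS6 receptor, had 558 and 582 in PC9 and 153 and 144 in H1650 (log2 -1.94 ± 0.08). IGF1R had 83 and 88.3 in PC9 and 40.7 and 39.3 in H1650 (log2 -1.10 ± 0.08). The ephrin ligand EFNB2 had 83.2 and 82.9 in PC9 and 0.746 and 1.04 in H1650 (log2 -6.51 ± 0.19). AL138689.2 on the other strand overlaps 26.2% of the exon length of EFNB2, so its reads are uncertain. FGFR2, a fibroblast growth factor receptor, and ROR2, a WNT5A receptor, had no read in either PC9 library. In H1650 FGFR2 had 76.9 and 74.4 CPM, at least 506-fold more, and ROR2 had 39.0 and 34.1, at least 244-fold more. FGF2, a ligand of FGF receptors, had 7.66 and 9.28 in PC9 and 172 and 164 in H1650 (log2 4.31 ± 0.11). FGFR2 and FGF2 were thus both higher in H1650.

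In the PI3K and mTOR list, 20 of 45 tested genes were higher in PC9 (44.4%) and 13 in H1650 (28.9%), and the median was -0.07. The adaptors IRS1, IRS2 and GAB2 were higher in PC9. IRS1, the insulin receptor substrate, had 117 and 113 CPM in PC9 and 14.5 and 11.1 CPM in H1650 (log2 fold change -3.17 ± 0.10, adjusted p = 8.6e-21). IRS2 had 121 and 115 in PC9 and 21 and 17.2 in H1650 (log2 -2.63 ± 0.10). GAB2 had 21.3 and 22.9 in PC9 and 2.52 and 3.13 in H1650 (log2 -2.95 ± 0.14). GAB1, a related adaptor, went the other way, with 22.1 and 20.7 in PC9 and 52 and 51.2 in H1650 (log2 1.27 ± 0.09). PHLPP2, a phosphatase that acts on AKT, had 14.3 and 16.3 in PC9 and 104 and 106 in H1650 (log2 2.78 ± 0.10).

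In the RAS and MAPK list, 17 of 40 tested genes were higher in PC9 (42.5%) and 10 in H1650, with a median of -0.11. BRAF, a RAF kinase, had 37.8 and 41.4 CPM in PC9 and 27.6 and 27.6 CPM in H1650 (log2 fold change -0.52 ± 0.10, adjusted p = 2.6e-05). RPS6KA2, an ERK-activated kinase, had 24.2 and 26.8 in PC9 and 2.01 and 1.77 in H1650 (log2 -3.76 ± 0.17). Both were higher in PC9. MRAS, a RAS relative that activates RAF through SHOC2, had 1.81 and 0.740 in PC9 and 55.7 and 54.4 in H1650 (log2 5.43 ± 0.18). RRAS had 18.2 and 17.1 in PC9 and 71.9 and 62.7 in H1650 (log2 1.93 ± 0.11). SOS1 and SOS2 were not analysed here.

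Genes induced by ERK were higher in PC9 for 21 of 34 tested (61.8%) and in H1650 for 10 (29.4%), with a median of -0.90. DUSP4, a nuclear ERK phosphatase, had 254 and 249 normalized CPM in the PC9 libraries and 8.44 and 8.10 in the H1650 libraries (log2 fold change -4.93 ± 0.10, adjusted p = 8.5e-25). ETV4, an ETS factor, had 99.2 and 98.4 in PC9 and 4.66 and 4.01 in H1650 (log2 -4.51 ± 0.14). FOSL1, the AP-1 subunit FRA1, had 299.9 and 296 in PC9 and 25.4 and 25.8 in H1650 (log2 -3.54 ± 0.10). CCND1, cyclin D1, had 716 and 749 in PC9 and 210.3 and 216 in H1650 (log2 -1.78 ± 0.07). DUSP6, the cytoplasmic ERK phosphatase, and SPRY4, a Sprouty inhibitor, were 7.32-fold and 4.76-fold higher in PC9. AC024909.2 on the other strand overlaps 40.5% of the exon length of DUSP6, which leaves the split of its reads uncertain. The immediate early genes EGR1, FOS and FOSB went the other way. EGR1 had 36 and 27.6 in PC9 and 492 and 439 in H1650 (log2 3.87 ± 0.11). FOS had 19.7 and 15.6 in PC9 and 138 and 118 in H1650 (log2 2.86 ± 0.12). FOSB had 2.87 and 1.33 in PC9 and 94.4 and 90.3 in H1650 (log2 5.46 ± 0.17). These delayed ERK targets and negative regulators were therefore higher in PC9 and these immediate early genes in H1650, in libraries that share a medium and a collection point by the labels.

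**Figure D5:**
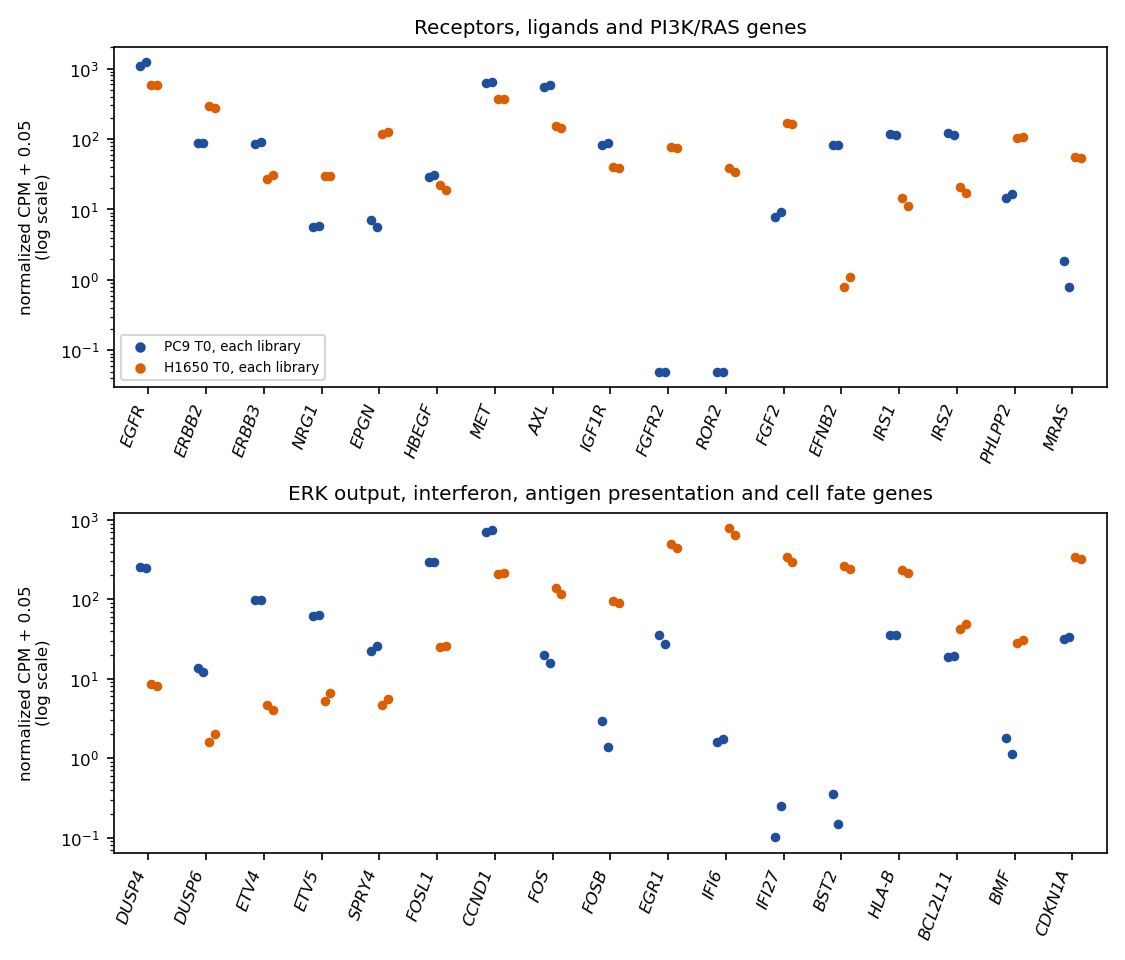
Normalized CPM plus 0.05 on a log scale for signalling genes, 1 point per T0 library, PC9 in blue and H1650 in orange. The 2 libraries of a line lie close together for most genes, and FGFR2 and ROR2 are at 0 in PC9.

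Interferon and JAK-STAT genes had the largest share on the H1650 side among the 22 lists: 39 of 55 tested (70.9%) were higher in H1650 and 12 (21.8%) in PC9, with a median of 1.54. Lists and members were chosen with earlier results of these data known, so this rank is a description and not a test. Their summed level was 1474 and 1511 CPM in PC9 and 5243 and 4755 in H1650. STAT3, a transcription factor of the pathway, had 132 and 135 CPM in PC9 and 309 and 302 CPM in H1650 (log2 fold change 1.20 ± 0.07, adjusted p = 8.2e-15). IFI27, an induced gene, had 0.0504 and 0.197 in PC9 and 343 and 294 in H1650 (log2 11.25 ± 0.20). IFI6 had 1.56 and 1.68 in PC9 and 785 and 639.8 in H1650 (log2 8.77 ± 0.16). BST2, the viral tether tetherin, had 0.302 and 0.0987 in PC9 and 266 and 242 in H1650 (log2 10.27 ± 0.17). OAS2, an RNA-activated synthetase, had 0.555 and 0.296 in PC9 and 75.4 and 62.1 in H1650 (log2 7.32 ± 0.18). Each of these genes was higher in H1650. The DNA sensor CGAS with 61.3 and 59.6 in PC9 and 21.2 and 19.3 in H1650 (log2 -1.58 ± 0.10), STAT6 with 130.2 and 129 in PC9 and 41.6 and 45.3 in H1650 (log2 -1.58 ± 0.08) and SOCS2, a brake on cytokine signalling, with 19.4 and 19.8 in PC9 and 6.53 and 6.02 in H1650 (log2 -1.65 ± 0.15) were higher in PC9. RIGI was not analysed here.

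Antigen presentation genes showed a similar split, with 24 of 35 tested (68.6%) higher in H1650, 6 (17.1%) in PC9 and a median of 1.22. HLA-B had 35.9 and 35.9 CPM in PC9 and 237 and 217 CPM in H1650 (log2 fold change 2.66 ± 0.09, adjusted p = 2.6e-20), with the reservation that reads of class I genes are hard to assign because the genes are alike and vary between people. VTCN1, the inhibitory ligand B7-H4, had 0.151 and 0.444 in PC9 and 29.99 and 29.8 in H1650 (log2 6.61 ± 0.21). CD274, which encodes PD-L1, had 16.7 and 17 in PC9 and 3.17 and 3.82 in H1650 (log2 -2.26 ± 0.19). MICB, a ligand of the NKG2D receptor, had 56.3 and 54.8 in PC9 and 5.55 and 5.48 in H1650 (log2 -3.33 ± 0.13). PC9 was the higher line for both. Class II was barely detected, HLA-DRA with 0.0504 and 0 in PC9 and 1.26 and 1.23 in H1650.

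Chemokine and inflammatory genes were mixed in direction, with 12 of 29 tested higher in H1650 and 14 in PC9. The median of -1.26 became -0.22 with floor genes at their bound and was above 0 with DESeq2 or without the filter. CCL5, a T cell attractant that interferon and NF-kB induce, had 0 and 0 CPM in PC9 and 17.1 and 17.1 CPM in H1650, at least 114-fold higher in H1650. CCL28 had 2.72 and 2.37 in PC9 and 43.8 and 43.9 in H1650 (log2 fold change 4.10 ± 0.15, adjusted p = 1.6e-19). TNFAIP3, the NF-kB inhibitor A20, had 105 and 114 in PC9 and 6.95 and 7.45 in H1650 (log2 -3.92 ± 0.11). PTGS2, cyclooxygenase 2, had 15 and 14.9 in PC9 and 0.373 and 1.27 in H1650 (log2 -4.10 ± 0.22). TNFAIP3 and PTGS2 were thus higher in PC9, and CCL5 and CCL28 in H1650. CXCL8 was low in both, at 1.97 and 1.58 in PC9 and 1.59 and 1.47 in H1650 (log2 fold change -0.22 ± 0.44, adjusted p = 0.677).

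The NRF2 and xenobiotic list had the largest share on the PC9 side among the 22 lists: 38 of 50 tested genes (76%) were higher in PC9 and 8 in H1650, with a median of -1.68. This rank too is only a description, since the lists were chosen with earlier results of these data known. Their summed level was 12562 and 12603 CPM in PC9 and 4342 and 4255 in H1650. GSTP1 and ALDH3A1 are given above. GPX2, a glutathione peroxidase of epithelia, had 153 and 158 CPM in PC9 and 0.233 and 0.347 CPM in H1650 (log2 fold change -9.01 ± 0.16, adjusted p = 2.5e-26). AKR1B10, a reductase of retinal and other aldehydes, had 167 and 176 in PC9 and 0.560 and 0.386 in H1650 (log2 -8.51 ± 0.15). AKR1C1, AKR1C2 and AKR1C3, aldo-keto reductases that act on steroids, lay between 546 and 672 CPM in PC9 and below 1 CPM in H1650, while the reads of these near-identical genes can be exchanged among them. NQO1, the quinone reductase often taken as the NRF2 reporter, was higher in H1650, with 393 and 413 in PC9 and 503 and 526 in H1650 (log2 0.35 ± 0.07). HMOX1, haem oxygenase, had 14.3 and 15.6 in PC9 and 90.4 and 86.2 in H1650 (log2 2.56 ± 0.11). CYP1B1 had 50.6 and 44.1 in PC9 and 337 and 314 in H1650 (log2 2.78 ± 0.08). AHR, the receptor that induces CYP1B1, had 32.4 and 29.8 in PC9 and 87.7 and 82.7 in H1650 (log2 1.45 ± 0.08). The list therefore held a set of reductases and transferases that were high in PC9 and near absent in H1650, beside targets that were higher in H1650. GSTT1 was not analysed here.

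Among tumour suppressors and 9p21 genes, 22 of 49 were higher in H1650 and 17 in PC9, with a median of 0.07. CDKN1A, the cell cycle inhibitor p21, was 10.3-fold higher in H1650, with 31.3 and 33.7 CPM in PC9 and 346 and 325 CPM in H1650 (log2 fold change 3.37 ± 0.10, adjusted p = 1.7e-21). RB1 had 61.2 and 66.8 in PC9 and 44.8 and 46.1 in H1650 (log2 -0.49 ± 0.08). TGFBR2, a TGF-beta receptor, had 88.3 and 99.4 in PC9 and 279 and 274 in H1650 (log2 1.56 ± 0.08). TET2 had 10.03 and 10.1 in PC9 and 41 and 41.1 in H1650 (log2 2.03 ± 0.12).

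Genes of apoptosis were mixed, with 15 of 43 tested higher in H1650, 17 in PC9 and a median of -0.09. BMF, a BH3-only killer, had 1.76 and 1.09 CPM in PC9 and 28.3 and 30.8 CPM in H1650 (log2 fold change 4.37 ± 0.15, adjusted p = 5.8e-20). BCL2L11, which encodes BIM, had 18.9 and 19.1 in PC9 and 42.6 and 48.3 in H1650 (log2 1.26 ± 0.09). Both were higher in H1650. The survival genes MCL1 and BCL2L1 differed little. MCL1 had 284 and 278 in PC9 and 241 and 248 in H1650 (log2 fold change -0.20 ± 0.07, adjusted p = 0.00900). This call was lost without PC9 replicate 1 (log2 -0.19) or H1650 replicate 1 (log2 -0.20). BCL2L1, the BCL-xL gene, had 160.2 and 169.7 in PC9 and 134 and 133 in H1650 (log2 fold change -0.31 ± 0.08, adjusted p = 0.00077). FADD, the death receptor adaptor, had 34.1 and 30.5 in PC9 and 13.5 and 10.3 in H1650 (log2 -1.45 ± 0.14). The TRAIL receptor TNFRSF10A had 24.5 and 25.4 in PC9 and 9.56 and 9.61 in H1650 (log2 -1.38 ± 0.18). PC9 was the higher line for both.

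Cell cycle genes differed by small amounts: 16 of 49 tested were higher in H1650 and 20 in PC9, with a median of -0.06, and only 1 and 6 of them differed by more than 2-fold. E2F1, the factor of S phase entry, had 88.9 and 86.8 CPM in PC9 and 280.3 and 247 CPM in H1650 (log2 fold change 1.58 ± 0.09, adjusted p = 5.6e-15). TK1, thymidine kinase, had 156 and 154 in PC9 and 297 and 261 in H1650 (log2 0.85 ± 0.08). MCM7, a subunit of the replicative helicase, had 414 and 418 in PC9 and 184 and 173 in H1650 (log2 -1.22 ± 0.07). CDT1, a licensing factor, had 109.5 and 98.5 in PC9 and 45.4 and 42.3 in H1650 (log2 -1.25 ± 0.09). MCM7 and CDT1 were thus higher in PC9, and E2F1 and TK1 in H1650. MKI67, the proliferation marker, had 384 and 433 in PC9 and 512 and 496 in H1650 (log2 fold change 0.31 ± 0.10, adjusted p = 0.00984), a call lost with DESeq2 (adjusted p = 0.171) and without PC9 replicate 1 (adjusted p = 0.135) or H1650 replicate 1 (adjusted p = 0.0549).

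Cancer-testis genes were largely off, with 34 of 44 below the filter and 18 at 0 reads in all 4 libraries. Of the 10 tested, 5 were higher in PC9 and 4 in H1650. The median of -2.81 was -1.69 with floor genes at their bound and is not a stable value. MAGEA3 and PRAME are given above. MAGEA6 had 188 and 198 CPM in PC9 and 0.280 and 0.116 CPM in H1650 (log2 fold change -9.95 ± 0.20, adjusted p = 2.2e-25). MAGEA12 had 26.4 and 29 in PC9 and 46.6 and 44.7 in H1650 (log2 0.72 ± 0.10).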

How the data were processed

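RNA of untreated PC9 and H1650 (0 h, 0.1% DMSO, 2 libraries each) was polyA-selected per the labels. The authors processed the reads with DolphinNext and featureCounts and deposited whole-number counts per gene and library for 60591 genes, without normalization. The submitters' processing notes name GRCh38 and DESeq2. The aligner and the strandedness are not given in the sources used here. The tool was edgeR 4.0.16 in R 4.3.3 (expression filter by group, TMM, quasi-likelihood fit of all 12 libraries with 6 groups as terms, 6 residual and 20.7 prior degrees of freedom). Of the genes, 19108 were tested, and a call needs an adjusted p under 0.05. The T0 libraries held 20922022 to 26346187 counts, which sets 3 reads at 0.116 to 0.151 normalized CPM. A fold against a line with 0 reads in both libraries is a bound, computed against 3 reads per library. The libraries of a pair differed by more than sampling noise (chi-square per gene of 4.36 in PC9 and 7.94 in H1650) and counted as 2 replicates.

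The 22 gene lists (932 entries) were written from general knowledge, and members, lists and the naming rule were chosen with earlier results of these data known. Named genes are list anchors, the 3 highest and 3 lowest called changes of a list with at least 10 CPM in the higher line, the 10 most abundant line-restricted genes of each line, the 10 highest and 10 lowest changes with over 3 reads in every T0 library, the 5 largest differences in CPM of each direction and genes in runs of restricted neighbours. Some genes picked by this rule are not reported here. Genes flanking the silent stretches, and those just inside or outside the limits of the restricted rule, were named after their values were seen. Positions are from GENCODE 29 and start regions from RefSeq. Alternatives were DESeq2 1.42.0, other normalizations and filters, the T0 libraries alone, a stricter threshold, the replicate block and leaving out each T0 library. The fits were also tested on simulated counts.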

Additional observations from a re-analysis of the deposited data

Results flagged for a closer look

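For 13 of 214 tested named genes, the difference between H1650 and PC9 was called at T0 and under each drug, in opposite directions. The difference between T0 and each drug also passed the interaction test of the same edgeR fit. Genes meeting this rule were not counted over all tested genes. Of the 7184 genes over 2-fold at T0, 5.03% were called in the opposite direction under erlotinib and 5.07% under osimertinib. The 13 are therefore listed as single genes and not as an excess. Values are log2 fold changes, H1650 minus PC9. ETV5, an ETS factor and ERK target, stood at -3.40 at T0, 4.39 under erlotinib and 3.65 under osimertinib, a T0-minus-erlotinib difference of -7.80 (adjusted p = 1.5e-19). DUSP6, an ERK phosphatase, stood at -2.86 at T0, 3.09 under erlotinib and 2.06 under osimertinib, a T0-minus-erlotinib difference of -5.94 (adjusted p = 5.8e-12). SPRY4, a Sprouty inhibitor, stood at -2.24 at T0, 7.12 under erlotinib and 6.97 under osimertinib, a T0-minus-erlotinib difference of -9.37 (adjusted p = 7.0e-16). In PC9 SPRY4 had at most 2 reads per library under erlotinib and 1 under osimertinib. The size of its fold changes under the drugs therefore rests on the counting floor. In H1650 SPRY4 had 5.03 CPM at T0, 9.53 under erlotinib and 3.88 under osimertinib. HBEGF, an EGFR ligand, stood at -0.52 at T0, 1.08 under erlotinib and 0.62 under osimertinib, a T0-minus-erlotinib difference of -1.59 (adjusted p = 3.5e-07). For these genes linked to EGFR and ERK, PC9 was higher at T0 and H1650 in the drug libraries. No untreated libraries at 36 h were used here, so the drug and the 36 h of culture cannot be told apart.

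CCNB1, cyclin B1, stood at -0.18 at T0, 2.06 under erlotinib and 1.98 under osimertinib, a T0-minus-erlotinib difference of -2.24 (adjusted p = 2.4e-16). CDT1, a licensing factor, stood at -1.25 at T0, 1.11 under erlotinib and 1.24 under osimertinib, a T0-minus-erlotinib difference of -2.36 (adjusted p = 9.9e-14). MCM7, a helicase subunit, stood at -1.22 at T0, 0.32 under erlotinib and 0.18 under osimertinib, a T0-minus-erlotinib difference of -1.54 (adjusted p = 3.0e-13). These cell cycle genes followed the same order, and the T0 call of CCNB1 was lost without any of the 4 T0 libraries (adjusted p between 0.0606 and 0.105). TP63, the basal master factor, stood at -3.02 at T0, 2.08 under erlotinib and 2.66 under osimertinib, a T0-minus-erlotinib difference of -5.09 (adjusted p = 3.7e-07). Its levels under erlotinib and osimertinib were low, at 0.260 and 0.228 CPM in PC9 and 1.15 and 1.48 CPM in H1650. CD274, which encodes PD-L1, stood at -2.26 at T0, 1.27 under erlotinib and 1.71 under osimertinib, a T0-minus-erlotinib difference of -3.53 (adjusted p = 7.3e-10). BCL2L1, the BCL-xL gene, stood at -0.31 at T0, 1.19 under erlotinib and 0.73 under osimertinib, a T0-minus-erlotinib difference of -1.49 (adjusted p = 5.9e-12). TNFRSF10A, a TRAIL receptor, stood at -1.38 at T0, 0.72 under erlotinib and 1.06 under osimertinib, a T0-minus-erlotinib difference of -2.10 (adjusted p = 4.6e-07). In this group too PC9 was the higher line at T0. CTSH, a lysosomal protease, stood at 1.23 at T0, -0.26 under erlotinib and -0.70 under osimertinib, a T0-minus-erlotinib difference of 1.49 (adjusted p = 1.3e-11). ACTB, beta actin, stood at 0.43 at T0, -0.20 under erlotinib and -0.58 under osimertinib, a T0-minus-erlotinib difference of 0.63 (adjusted p = 4.4e-06). For both of these H1650 was the higher line at T0 and PC9 under the drugs.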

How the results depend on the processing

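Counts of called genes stayed within 1.5 times of those reported under DESeq2, RLE and upper quartile normalization, no filter, the 4 T0 libraries alone and an adjusted p under 0.01, with 11680 to 13461 genes called. Requiring at least 10 counts in every library removes genes silent in a line, and left 9873 called genes, 3705 with more than a 2-fold difference, and 3037 and 2981 of those in the same direction under erlotinib and osimertinib. Leaving out 1 T0 library gave 12067 to 12442 called genes, and 6825 to 7038 with more than a 2-fold difference. No gene called in both fits changed direction under any alternative. The share of called genes that were higher in H1650 lay between 49.3% and 51.9%, and the median of all tested genes between 0.00 and 0.06.

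Line-restricted genes depended on the limits: with 5 CPM there were 185 for H1650 and 117 for PC9, with 20 CPM 64 and 33, and with 0 reads in the silent line 78 and 22. Leaving out 1 library gave 113 to 127 for H1650 and 60 to 74 for PC9. The log2 fold change of NAPSA, which was not called, lay between -0.22 (without PC9 replicate 1) and 0.52 (without PC9 replicate 2), and was -0.05 without H1650 replicate 1. Of 214 tested named genes 208 kept their call and direction under all alternatives.

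Same-numbered replicates did not deviate together (correlations of deviations between -0.07 and 0.09), so the numbers were not taken to pair libraries. With the replicate number as a block, 13591 genes were called (13267 of them shared) and 7174 differed by more than 2-fold, and no other call of a named gene changed. Medians of lists were less stable. Over lists and alternatives, 91 medians moved by at least the SD of differences between single H1650 and PC9 libraries, and 151 did not. In 14 cases the sign changed or the value became 0. Among lists with many silent genes, positional HOX genes moved from 1.84 to -0.55 and cancer-testis genes from -2.81 to 0.79 with at least 10 counts in every library. Medians near 0 also changed sign without H1650 replicate 1, for epithelial adhesion genes (0.04 to -0.02) and tumour suppressors (0.07 to -0.07). With 2 libraries a group, SDs are imprecise.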

Other observations

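Outside the lists, the genes with the widest log2 fold change that had more than 3 reads in every T0 library included several not described above. On the PC9 side MAL, a raft protein of apical transport, had 109.6 and 103 CPM in PC9 and 0.326 and 0.193 CPM in H1650 (log2 fold change -8.68 ± 0.17, adjusted p = 1.3e-25). The non-coding AFAP1-AS1 had 247 and 269 in PC9 and 0.466 and 1.27 in H1650 (log2 -8.15 ± 0.16). The orphan receptor GPR78 had 61.5 and 55.6 in PC9 and 0.280 and 0.154 in H1650 (log2 -8.08 ± 0.24). On the H1650 side ITGA4, the alpha 4 integrin of leukocytes, had 0.857 and 0.592 CPM in PC9 and 271 and 283 CPM in H1650 (log2 8.57 ± 0.14). MYL9, a smooth muscle myosin light chain, had 5.09 and 4.39 in PC9 and 1157 and 1038 in H1650 (log2 7.85 ± 0.13). NID1, a basement membrane linker, had 0.655 and 0.296 in PC9 and 142 and 130.4 in H1650 (log2 8.15 ± 0.16). VAV3, a guanine nucleotide exchange factor, had 0.353 and 0.247 in PC9 and 56.8 and 56.5 in H1650 (log2 7.54 ± 0.18). CLCA2, a squamous adhesion protein, had 0.252 and 0.346 in PC9 and 53.5 and 54.1 in H1650 (log2 7.46 ± 0.18).

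By the difference in CPM, the heat shock protein genes stood apart in opposite directions. HSP90AA1, the inducible HSP90, had 9905 and 10539 CPM in PC9 and 1088 and 1135 CPM in H1650 (log2 fold change -3.20 ± 0.08, adjusted p = 9.8e-23). HSPB1, the small heat shock protein HSP27, had 215 and 188 in PC9 and 2665 and 2127 in H1650 (log2 3.57 ± 0.11). HMGA1, a chromatin protein of proliferating cells, had 3119 and 3051 in PC9 and 234 and 224 in H1650 (log2 -3.75 ± 0.08). FTL, the ferritin light chain and an NRF2 target, had 2122 and 2084 in PC9 and 465 and 441 in H1650 (log2 -2.21 ± 0.07). PC9 was the higher line for both. PLEC, the cytoskeletal linker plectin, had 2046 and 2057 in PC9 and 4273 and 3536 in H1650 (log2 0.93 ± 0.10). GNAS, the stimulatory G protein, had 748 and 747 in PC9 and 2426 and 2403 in H1650 (log2 1.69 ± 0.07). PLEC and GNAS were higher in H1650. HSP90AA1, FTL and HMGA1 have processed pseudogenes that can take or lend reads.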
